A study of Mus musculus with 12 samples.

Results

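The genes described here encode the nuclear subunits of the oxidative phosphorylation complexes in natural killer T cells (NKT cells), lymphocytes whose receptor binds lipids on the molecule CD1d. They are the rows of both deposited expression tables whose symbol begins with Nduf (complex I), Uqcr (complex III), Cox4, Cox5, Cox6, Cox7 or Cox8 (complex IV) or Atp5 (complex V), together with the 4 Sdh genes of complex II. The rule finds 90 of 23284 genes, 42 in complex I, 4 in complex II, 8 in complex III, 19 in complex IV and 17 in complex V. Of these, 80 are subunits by name. The other 10 were kept in the counts but left out of the sums over a complex. They are the assembly factors Ndufaf1, Ndufaf2, Ndufaf3 and Ndufaf4, Ndufa4 and Ndufa4l2, whose family is named for complex I although the Ndufa4 protein sits in complex IV, the supercomplex factor Cox7a2l, Atp5s and Atp5sl, which are not part of the ATP synthase core, and Cox4nb, which matches by its symbol only.

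Oxidative phosphorylation takes place in the inner mitochondrial membrane. Complex I oxidises NADH and complex II oxidises succinate, both hand electrons through ubiquinone to complex III, cytochrome c carries them on to complex IV, and complex IV reduces oxygen. Complexes I, III and IV pump protons, and complex V, the ATP synthase, lets them flow back and makes ATP. Complexes I, III, IV and V each hold at least one subunit encoded in mitochondrial DNA and take the others from nuclear genes, so they are built from the products of both genomes. Complex II is encoded in the nucleus alone. The 13 genes of mitochondrial DNA are not analysed here.

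RNA from sorted NKT cells of C57BL/6 mice was measured in 12 libraries, 3 in each of 4 groups. The thymus cKO and liver cKO groups hold NKT cells of CD4-CD8- double-negative (DN) origin. They come from mice in which a Cre driven by the E8III element, active at the CD4+CD8+ double-positive (DP) stage, deletes a floxed Rag2 gene. The thymus YFP+ and liver YFP+ groups hold NKT cells of DP origin from mice with the same E8III-Cre and a loxP-STOP-loxP reporter at Rosa26. All 4 groups thus carry the Cre, and only the cKO mice also carry the Rag2 deletion, so that the origin of the cells and the kind of mouse cannot be told apart. The same gate was used for every group: cells negative for 7AAD, CD45R, CD4 and CD8 that bound CD1d dimer and carried the T cell receptor beta chain. The labels give no age and do not say whether replicates are separate animals, so the spread behind each p-value is that among the libraries at hand and could be technical. Titles and descriptions of the 6 liver libraries name opposite mice. Groups here follow the titles, which name the same groups as the column headers of the deposited values. Each liver difference would change sign if the descriptions were the correct ones.

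Values are FPKM, fragments counted relative to transcript length and to all mapped fragments. Levels of different genes are set beside each other within a table, but such an order can depend on the table. In YFP+ cells Atp5k averaged 14.2 FPKM in the thymus and 308 in the liver, and Atp5a1 98.8 and 142. Why these genes stand so differently was not tested. The read depth of the libraries is unknown. The floxed gene, Rag2, was listed at 0 in 5 thymus libraries and at 0.015 FPKM in cKO replicate 2, and in the liver at 0 in the 3 cKO libraries and at 1.365, 0.985 and 1.075 FPKM in the YFP+ libraries. The NKT and T cell markers Cd3d, Cd3e, Cd3g, Lck, Cd2, Thy1, Zbtb16 and Tbx21 were detected in every group. Their sum was lower in each cKO than in each YFP+ library, at 996 to 1062 against 1133 to 1256 FPKM in the thymus and 3003 to 3032 against 3214 to 3752 FPKM in the liver. The sum of all FPKM of a library was 187828 to 194655 in thymus cKO, 198790 to 212688 in thymus YFP+, 450429 to 465304 in liver cKO and 509267 to 558042 in liver YFP+. Because these sums differ between the groups, the scaling of a library bears on every count below. The counts per tissue and complex are given under the other scalings too. The tables of the tissues were normalized apart, and their levels are not tested against each other.

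Promoters of many nuclear genes of these complexes are known to hold sites of NRF1, of ETS factors such as GABP or of YY1. RefSeq promoters on GRCm38.p6, which span the start of each gene, were matched by symbol for 71 of the 90 members. They were searched on both strands for GCATGCGC, the core of the NRF1 motif, for CCGGAAG, an ETS motif, and for AAGATGG, a YY1 motif. The NRF1 core is close to its own reverse complement, so that both strands can match at overlapping bases. It was present in 11 members (15.5%), against 3.05% of all promoters and 6.60% of those of genes tested in the liver. The ETS letters were present in 17 members (23.9%), which is close to their share among tested genes (22.9%, and 9.93% of all promoters). The YY1 letters were present in 10 (14.1%, against 9.20% of tested genes and 7.28% of all). At least 1 of them stood in 32 members, or 45.1%, against 18.6% of all 27025 genes with a promoter and 34.3% of the 6655 tested in the liver. The stretches below run from 120 bases before the start to the base before it, one member per complex, written 5′ to 3′ on the strand of the gene with the matched letters in capitals. They were chosen from members that the results turn on and whose match lies before the start. Each member shown was lower in liver cKO cells, and all but Cox6b1 also in thymus cKO cells.
Ndufa6 (complex I, chr15:82354292-82354411, minus strand, NRF1 core): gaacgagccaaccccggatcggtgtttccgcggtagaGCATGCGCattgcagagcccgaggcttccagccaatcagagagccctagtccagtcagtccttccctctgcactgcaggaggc
Sdhb (complex II, chr4:140961151-140961270, plus strand, NRF1 core): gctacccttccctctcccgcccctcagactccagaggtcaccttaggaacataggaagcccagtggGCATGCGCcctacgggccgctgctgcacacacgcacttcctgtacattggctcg
Uqcrh (complex III, chr4:116075071-116075190, minus strand, ETS letters on the opposite strand): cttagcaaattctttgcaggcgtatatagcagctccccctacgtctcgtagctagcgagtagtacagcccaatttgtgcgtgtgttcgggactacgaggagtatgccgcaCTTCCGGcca
Cox6b1 (complex IV, chr7:30626115-30626234, minus strand, ETS letters on the opposite strand): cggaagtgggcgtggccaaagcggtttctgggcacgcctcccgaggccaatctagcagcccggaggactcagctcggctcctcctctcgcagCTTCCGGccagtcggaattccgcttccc
Atp5g2 (complex V, chr15:102671048-102671167, minus strand, NRF1 core on both strands): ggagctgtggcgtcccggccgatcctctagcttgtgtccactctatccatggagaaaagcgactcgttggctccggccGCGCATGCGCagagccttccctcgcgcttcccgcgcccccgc

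A match is a run of letters and not a measured site. Among members with a promoter, 27 of the 50 that were lower in liver cKO cells held at least 1 of the motifs, and 5 of the 17 that did not pass. By complex, members with any match numbered 16 of 37 in complex I, 2 of 3 in complex II, 3 of 5 in complex III, 4 of 13 in complex IV and 7 of 13 in complex V.

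The summed FPKM of the subunits was lower in cKO than in YFP+ cells for each complex, and in both tissues each cKO library lay below each YFP+ library. In the thymus complex I summed to 802 ± 29.7 FPKM in cKO and 981 ± 77.7 in YFP+ (mean ± SD, n = 3, as below), complex II to 132 ± 6.42 against 162 ± 19.5, complex III to 297 ± 6.41 against 363 ± 31.6, complex IV to 573 ± 26.5 against 696 ± 47.9 and complex V to 874 ± 38.4 against 1011 ± 52.2. The cKO sums were thus 18.3%, 18.5%, 18.2%, 17.6% and 13.6% lower. In the liver the sums were 3700 ± 141 against 4871 ± 516 FPKM for complex I, 324 ± 12.4 against 423 ± 33.7 for II, 1388 ± 36.1 against 1924 ± 187 for III, 2635 ± 43.3 against 3532 ± 227 for IV and 3228 ± 84.8 against 4425 ± 436 for V. There the cKO sums were 24.1%, 23.4%, 27.8%, 25.4% and 27.1% lower.

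**Figure D1:**
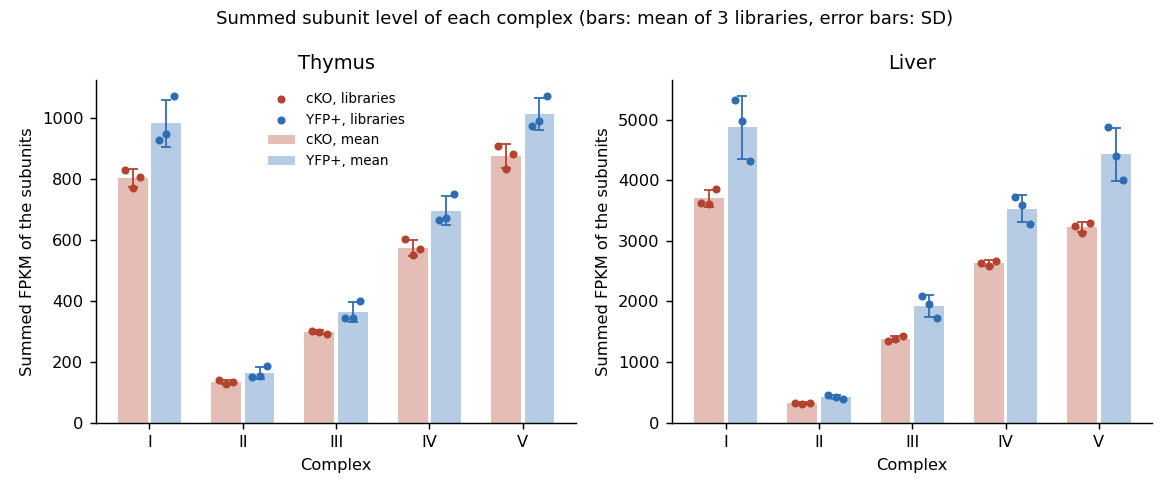
Summed FPKM of the subunits of complexes I to V (y axis, separate scale per tissue) in cKO and YFP+ libraries; bars are means, error bars SD and points the 3 libraries of a group. For each complex the cKO libraries lie below the YFP+ libraries, by 13.6% to 18.5% of the mean in the thymus and by 23.4% to 27.8% in the liver.

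All subunits together took 1.43%, 1.37% and 1.38% of the FPKM sum in thymus cKO libraries and 1.54%, 1.53% and 1.64% in YFP+ libraries. In the liver they took 2.46%, 2.45% and 2.49% in cKO and 2.95%, 2.81% and 2.69% in YFP+ libraries. The groups were thus apart also after division by the FPKM sum of each library.

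The balance between the complexes changed little in size. The shares of complexes I and V in the thymus and of complex III in the liver were apart between the groups, and the others overlapped. Complex I held 29.9% ± 0.0835 of the summed subunit FPKM in thymus cKO and 30.5% ± 0.243 in thymus YFP+ cells, and complex V 32.6% ± 0.318 and 31.5% ± 0.598. In the liver complex I held 32.8% ± 0.482 against 32.1% ± 0.540, and complex V 28.6% ± 0.336 against 29.2% ± 0.437. Complex III held 11.1% ± 0.427 against 11.3% ± 0.196 in the thymus and 12.3% ± 0.234 against 12.7% ± 0.0940 in the liver. For complex IV it was 21.4% ± 0.199 against 21.7% ± 0.0479 and 23.4% ± 0.279 against 23.3% ± 0.666. Complex II, the smallest and the only one without a mitochondrially encoded subunit, held 4.94% ± 0.0522 against 5.04% ± 0.239 in the thymus and 2.87% ± 0.0687 against 2.79% ± 0.0431 in the liver.

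Within a complex, subunit levels were unequal. In complex I, Ndufa6 led in the thymus, at 62.7 FPKM on average in cKO and 83.6 in YFP+ cells, and Ndufa3 in the liver, at 400.2 and 477. Ndufs1, the largest iron-sulfur subunit, was the lowest in all groups, at 3.64 and 4.67 FPKM in the thymus and 5.01 and 6.23 in the liver. The top subunit of complex I stood 17.2-fold to 80.0-fold above the bottom one, by group. Most neighbours in this order were not separate: the libraries of 27 to 31 of 35 neighbouring pairs overlapped in complex I. Cox4i1 led complex IV in every group, with 113 and 144 FPKM in the thymus and 527 and 654 in the liver. In complex V the leader was Atp5g2 in the thymus (149 and 187 FPKM) and Atp5e in the liver (476 and 644).

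For the comparison between the groups each gene was fitted with limma on log2(FPKM + 1), with p-values adjusted over all tested genes by the Benjamini-Hochberg method. Genes whose FPKM averaged 1 or more were tested, and 82 members passed that filter in each tissue. The 8 others were 7 isoforms of complex IV that are known from heart, muscle, lung or testis, and Ndufa4l2. Cox8b, Cox8c and Ndufa4l2 were listed at 0 in all liver libraries. The highest value of any of the 8 was 2.185 FPKM, for Cox7a1 in YFP+ replicate 1 of the liver.

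In the thymus 14 of 82 members were lower in cKO cells and none higher at an adjusted p of 0.05. Over all 9097 genes, 13.1% were lower and 2.64% higher, so that the share of lower members stands close to that of all genes. At an unadjusted p under 0.05 there were 53 members lower and 1 higher, against 32.7% and 4.92% of all genes. Every cKO library lay below every YFP+ library in 57 of the 82, against 37.6% of all genes. The members' median difference was -0.26 on the log2 scale, and that of all tested genes -0.16. By complex the medians were -0.28 for I, -0.25 for II, -0.26 for III, -0.26 for IV and -0.19 for V, and the lower members numbered 7 of 41, 1 of 4, 3 of 8, 2 of 12 and 1 of 17.

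**Figure D2:**
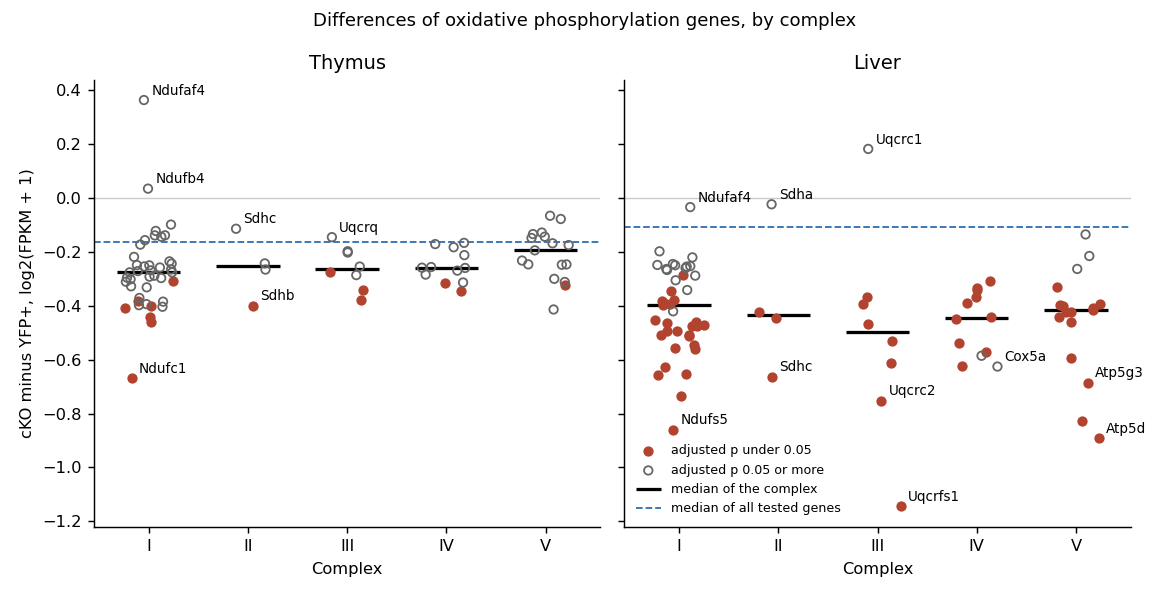
Difference between cKO and YFP+ cells in log2(FPKM + 1) for each tested member (points), by complex, in thymus and liver; filled points passed at an adjusted p of 0.05, black lines are the median of each complex and the dashed line is the median of all tested genes. The medians of the complexes lie between -0.28 and -0.19 in the thymus and between -0.50 and -0.40 in the liver, where Uqcrc1 (0.18) is the only member above 0 with values as deposited.

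Complex I gave 7 of the lower members in the thymus. Ndufa6, an accessory subunit of the matrix arm, was at 60.9, 62.7 and 64.5 FPKM in cKO and 81.1, 81.6 and 88.0 in YFP+ libraries, a log2 difference of -0.41 (SE 0.0685, adjusted p = 0.00852, limma). The groups were clearly apart, and Ndufa6 was the only one of the 14 to keep its call in all 6 fits without 1 library (adjusted p of 0.00848 to 0.0354). Ndufc1, a small membrane arm subunit, showed the largest change of a member, 6.02, 5.49 and 7.08 against 9.10, 9.74 and 12.6 FPKM (-0.67, SE 0.134, adjusted p = 0.0165). Its call ended without cKO replicate 2 (0.0506) or YFP+ replicate 3 (0.0520).

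Ndufa5, a matrix arm subunit, was at 16.3, 15.1 and 14.5 FPKM in cKO and 22.1, 18.5 and 23.9 in YFP+ libraries (adjusted p = 0.0261). Ndufb9, of the membrane arm, was at 25.3, 25.2 and 25.2 against 30.4, 32.1 and 37.6 FPKM (adjusted p = 0.0284). The other lower members of complex I were Ndufb8, Ndufb5 and Ndufs8, a core iron-sulfur subunit that passes electrons towards ubiquinone. Of the 7 nuclear core subunits, which carry the electron path, Ndufs8 alone passed, and their median was -0.30. Ndufv1, which binds the flavin that takes electrons from NADH, was at 18.1, 18.7 and 19.1 against 23.8, 20.9 and 26.8 FPKM (-0.33, adjusted p = 0.0532), and Ndufs1 at 3.87, 3.18 and 3.86 against 4.46, 4.48 and 5.06 FPKM (-0.29, adjusted p = 0.0776). Both had every cKO library below the YFP+ libraries and missed the threshold.

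Ndufaf4, an assembly factor of complex I, ran the other way, at 2.21, 2.60 and 2.79 FPKM in cKO and 1.91, 1.64 and 1.67 in YFP+ libraries. The groups did not overlap, the log2 difference was 0.36 (SE 0.105), and the adjusted p of 0.0509 missed the threshold. It was the higher member under 3 other scalings (adjusted p of 0.0332, 0.0466 and 0.0279 with median ratios, with libraries rescaled to equal FPKM sums and with the length trend removed). This gene was singled out after its values were seen.

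In complex II the 2 hydrophilic subunits carry the flavin (Sdha) and the iron-sulfur clusters (Sdhb), and Sdhc and Sdhd anchor them in the membrane. Sdhb was lower in the thymus, at 40.8, 37.1 and 40.5 FPKM in cKO and 49.4, 48.5 and 60.0 in YFP+ libraries (-0.40, SE 0.0968, adjusted p = 0.0319). Sdha was at 48.8, 42.7 and 45.5 against 52.6, 50.4 and 62.9 FPKM (-0.27, adjusted p = 0.0953), with the groups apart and the threshold missed. Sdhc, at 18.8, 18.4 and 19.6 against 17.7, 22.1 and 22.1 FPKM, overlapped (adjusted p = 0.417).

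Complex III has a catalytic part, with cytochrome b, cytochrome c1 and the Rieske iron-sulfur protein Uqcrfs1, and large core proteins, Uqcrc1 and Uqcrc2. Both core proteins were lower in thymus cKO cells. Uqcrc1 was at 70.9, 66.0 and 68.4 against 82.4, 81.2 and 85.5 FPKM (-0.28, SE 0.0660, adjusted p = 0.0309) and Uqcrc2 at 33.4, 29.9 and 28.8 against 35.6, 39.3 and 42.8 FPKM (-0.34, adjusted p = 0.0438). Uqcrh, the hinge protein that helps cytochrome c1 meet cytochrome c, was at 65.8, 66.3 and 60.7 against 77.9, 76.2 and 99.2 FPKM (-0.38, adjusted p = 0.0485). Uqcrfs1 was at 31.7, 33.5 and 32.3 against 38.6, 36.9 and 44.3 FPKM (-0.29, adjusted p = 0.0547). For each of these 4 the groups did not overlap.

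In complex IV, Cox4i1, a regulatory subunit, was at 110, 111 and 117 FPKM in cKO and 138, 138 and 154 in YFP+ libraries (-0.35, SE 0.0723, adjusted p = 0.0192). Cox6c, a small subunit, was at 45.6, 45.3 and 42.7 against 55.0, 54.5 and 57.2 FPKM (-0.31, adjusted p = 0.0213). Both were apart in every library. Cox5a was at 59.1, 53.4 and 52.8 against 65.6, 61.3 and 75.4 FPKM (adjusted p = 0.0697).

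In complex V only Atp5g2 passed in the thymus. It encodes the ring subunit c, whose rotation drives ATP synthesis, and it was at 155, 142 and 150 FPKM in cKO and 190, 188 and 182 in YFP+ libraries (-0.32, SE 0.0657, adjusted p = 0.0177). The other genes for the same peptide, Atp5g1 and Atp5g3, overlapped between the groups (adjusted p = 0.288 and 0.297). The catalytic head subunits Atp5a1 (85.9, 83.6 and 89.1 against 93.5, 98.3 and 105 FPKM) and Atp5b (125, 118 and 120 against 134, 136 and 133 FPKM) lay lower in each cKO library and missed the threshold (adjusted p = 0.0896 and 0.123). On these values the head subunits were at 87.2% and 90.2% of the YFP+ mean and Atp5g2 at 79.9%.

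The thymus count rested on the scaling and on single libraries. With median-ratio scaling the median of all genes moved from -0.16 to 0.00, and 1 member was lower (Ndufc1) and 1 higher (Ndufaf4), against 3.96% of all genes lower. With libraries rescaled to equal FPKM sums it was 6 lower and 1 higher (6.91% of genes lower), and with the trend on transcript length removed 1 lower and 1 higher of 80 (4.23%). By complex the 6 were 4 of I, 1 of II and 1 of IV. With the length trend removed the lower member was Ndufc1 of complex I. Members at an unadjusted p under 0.05 in either direction numbered 10 of 82 with median ratios (22.9% of all genes), 40 of 82 with equal FPKM sums (28.6%) and 12 of 80 with the length trend removed (23.2%). Members with a difference below 0 went from 80 of 82 to 59, 78 and 61 of 80 in the same order. Leaving out cKO replicate 1 gave 36 members lower and 1 higher, and 2055 of 9101 genes lower, against 1189 of 9097 with all libraries. Only 1 member was called when cKO replicate 2 was left out (490 of 9116 genes lower), and 2 when it was cKO replicate 3 (437 of 9114). Leaving out a YFP+ library gave 4 (replicate 1), 4 (replicate 2) and 2 (replicate 3), with 468, 478 and 338 genes lower. The calls over all genes thus moved along with those of the members. Among cKO libraries, replicate 1 held the highest value of its group for 50 of the 82 members, and among YFP+ libraries replicate 3 for 68. Of the T and NKT cell markers, Zbtb16, the factor that defines NKT cells, was at 3.76 ± 0.565 FPKM in thymus cKO and 12.3 ± 1.26 in YFP+ cells (-1.48, adjusted p = 2.38e-04), Cd3e was lower as well and Thy1 higher. Replicate 1 of cKO also held 40.8 FPKM of the red cell transcript Hbb-b1, against 0.03 to 5.51 FPKM in the other thymus libraries, and the part of these markers in the members' values was not tested.

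In the liver 60 of 82 members were lower in cKO cells and none higher, against 19.7% and 7.49% of all 9591 tested genes. At an unadjusted p under 0.05, 72 were lower and 0 higher, against 28.6% and 11.8% of all genes. All 60 had each cKO library below each YFP+ library, and such separation was seen in 66 of the 82, against 29.6% of all genes. The median difference of the members was -0.42 on the log2 scale, that of all tested genes -0.11, and 79 of the 82 lay below the latter. The lower members were 26 of 41 in complex I, 3 of 4 in complex II, 7 of 8 in complex III, 10 of 12 in complex IV and 14 of 17 in complex V, with medians of -0.40, -0.43, -0.50, -0.44 and -0.42. In such bulk samples fewer cells of a type and less RNA per cell cannot be told apart.

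Markers of some other cell types moved with the liver groups, while those of the T cells themselves mostly did not pass. Of the 8 T and NKT cell markers Cd3d was lower in cKO cells, at 431 ± 5.71 against 559 ± 69.6 FPKM (-0.37, adjusted p = 0.0231), and 7 did not pass. The 3 red cell markers summed to 4.92 to 7.52 FPKM in cKO and 320 to 370.2 in YFP+ libraries, the 7 DP thymocyte markers to 13.3 to 14.8 and 55.8 to 63.8, the 4 B cell markers to 1.92 to 3.34 and 10.4 to 11.6, the 5 myeloid markers to 12.3 to 15.9 and 43.9 to 61.3, and the 5 cell cycle genes to 15.9 to 16.1 and 38.2 to 41.3. All 4 tested DP markers, both tested B cell genes and both globins were lower in cKO cells, against 19.7% of all tested genes. So were 4 of 5 cell cycle genes, 1 of 2 tested myeloid genes and Trf, the only hepatocyte marker above the tested level. Cd8b1, Dntt and Cd79a averaged 0.844, 0.546 and 0.354 FPKM in cKO cells and passed the filter only through the YFP+ libraries. For these genes a lower value in cKO cells was thus fixed in advance. Trf was lower in thymus cKO cells too (4.80 ± 0.968 against 27.6 ± 2.37 FPKM). Alb, Apoa1 and Ttr were at 0 in each YFP+ library of the liver, and the myeloid marker Clec4f too. In the thymus the DP markers summed to 0.490 to 1.79 FPKM in cKO and 2.14 to 4.06 in YFP+ libraries. The part of these cells in the members' values was not tested.

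Complex I in the liver was led by Ndufs5, an accessory subunit of the membrane arm. It was at 68.5, 51.6 and 56.3 FPKM in cKO and 105, 116 and 99.8 in YFP+ libraries, a difference of -0.86 (SE 0.115, adjusted p = 0.00169). Ndufc2, a membrane arm subunit, was at 62.8, 64.6 and 63.2 against 113, 98.8 and 91.6 FPKM (-0.66, SE 0.0914, adjusted p = 0.00196) and Ndufb6, of the same arm, at 65.1, 51.1 and 60.0 against 94.8, 107 and 93.2 FPKM (-0.74, SE 0.105, adjusted p = 0.00223). Ndufs6, of the matrix arm, was at 71.5, 74.0 and 73.1 against 118, 110 and 95.2 FPKM (-0.56, adjusted p = 0.00418). The highest cKO library stayed well under the lowest YFP+ library for each of these 4, and their calls held under all 13 alternatives run.

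Among the core subunits of complex I, 5 of 7 were lower in the liver, with a median of -0.46. Ndufv1 was at 37.6, 41.5 and 38.7 FPKM in cKO and 47.5, 48.2 and 48.2 in YFP+ libraries (-0.28, adjusted p = 0.0280). Ndufs1, at 5.14, 4.91 and 4.97 against 5.83, 6.40 and 6.47 FPKM, missed the threshold (-0.27, adjusted p = 0.0999) although the groups were apart. Ndufa3, the most abundant subunit, was at 396, 412 and 393 against 541, 476 and 414 FPKM, with a gap of less than 3 FPKM between the groups (-0.24, adjusted p = 0.0999). Ndufa6, shown above with its NRF1 core, was at 220, 218 and 223 against 318, 303 and 253 FPKM (-0.40, adjusted p = 0.0160).

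Complex II split in the liver. Sdhc, the anchor subunit, had the smallest adjusted p of the members, at 50.2, 47.9 and 49.3 FPKM in cKO and 79.0, 78.9 and 77.0 in YFP+ libraries (-0.66, SE 0.0704, adjusted p = 5.82e-04). Sdhd, the other anchor, was at 74.8, 79.9 and 90.0 against 121, 111 and 97.1 FPKM (-0.42, adjusted p = 0.0207), and Sdhb at 120, 97.7 and 108 against 170, 149 and 127 FPKM (-0.44, adjusted p = 0.0285). Sdha, the catalytic subunit, did not differ by more than the spread, at 84.4, 84.0 and 84.5 against 85.8, 83.6 and 87.6 FPKM (-0.02, SE 0.0678, adjusted p = 0.831). The ratio of Sdha to Sdhc, on which the scaling of a library has no bearing, was 1.68, 1.76 and 1.72 in liver cKO and 1.09, 1.06 and 1.14 in liver YFP+ libraries. In the thymus it was 2.60, 2.33 and 2.32 in cKO and 2.97, 2.28 and 2.85 in YFP+, and overlapped. The ratio of Sdha to Sdhb was higher in each cKO library in both tissues. It was 1.20, 1.15 and 1.12 against 1.06, 1.04 and 1.05 in the thymus, and 0.702, 0.859 and 0.781 against 0.503, 0.561 and 0.689 in the liver.

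Complex III split between its core proteins. Uqcrc2 fell in liver cKO cells, at 45.9, 47.2 and 52.1 FPKM against 90.6, 81.6 and 74.8 in YFP+ libraries (-0.75, SE 0.0954, adjusted p = 0.00131). Uqcrc1, its partner in the core, was at 105, 112 and 98.6 against 83.3, 93.3 and 102 FPKM, overlapped and did not pass (0.18, SE 0.0956, adjusted p = 0.191). With libraries rescaled by median ratios, to equal FPKM sums or with the length trend removed, Uqcrc1 passed as higher (adjusted p = 0.0465, 0.0373 and 0.0234), and it was the only member to do so in the liver. The ratio of Uqcrc1 to Uqcrc2 was 2.29, 2.38 and 1.89 in liver cKO and 0.919, 1.14 and 1.37 in liver YFP+ libraries, and the groups were apart. In the thymus the ratio was 2.24 ± 0.130 in cKO and 2.13 ± 0.167 in YFP+ cells.

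The small subunits of complex III followed Uqcrc2 in direction. Uqcrh was at 370, 348 and 365 FPKM in cKO and 607, 556 and 497 in YFP+ libraries (-0.61, SE 0.0856, adjusted p = 0.00202). Uqcrb was at 229, 227 and 220 against 339, 321 and 277 FPKM (-0.47, adjusted p = 0.00638) and Uqcrq at 147, 158 and 170 against 259, 242 and 192 FPKM (-0.53, adjusted p = 0.0124). All were apart. The Rieske protein gene Uqcrfs1 had the largest fitted difference of any member, -1.15 (SE 0.302, adjusted p = 0.0252), at 8.67, 9.17 and 7.34 FPKM in cKO and 14.4, 14.8 and 35.4 in YFP+ libraries. That size rests on YFP+ replicate 3, without which it was -0.74 (adjusted p = 0.00596), and the call ended without cKO replicate 1, 2 or 3 (0.0660, 0.0616 and 0.0775), with no filter on low values (0.0879), with equal FPKM sums (0.0769) and with the length trend removed (0.0580).

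**Figure D3:**
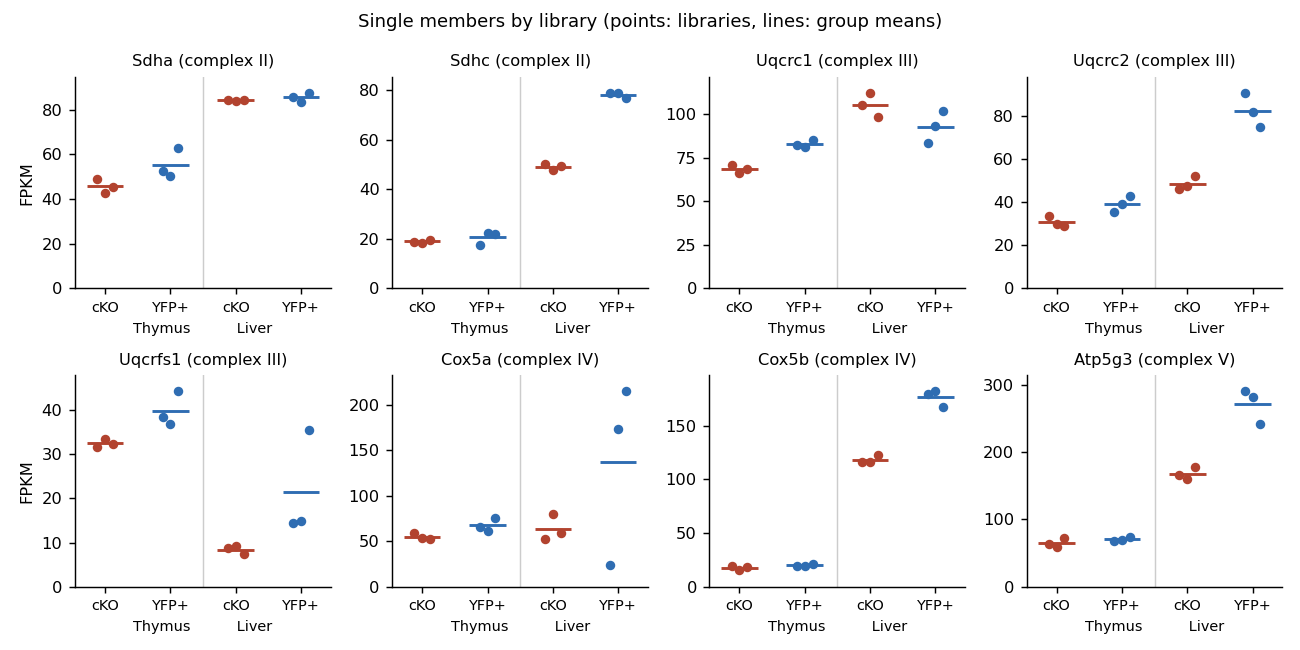
FPKM of 8 members (y axis, each panel its own scale from 0) in the libraries of thymus and liver, cKO and YFP+; points are libraries and lines group means. In the liver Sdhc, Uqcrc2, Cox5b and Atp5g3 are lower in each cKO library while Sdha and Uqcrc1 overlap, and Cox5a spreads from 23.9 to 215 FPKM within the YFP+ group.

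In complex IV of the liver, Cox5b, which binds zinc on the matrix side, was at 116, 116 and 122.8 FPKM in cKO and 180, 182 and 167 in YFP+ libraries (-0.57, SE 0.0715, adjusted p = 0.00121). Cox7a2 was at 118, 114 and 121 against 206, 181 and 160 FPKM (-0.62, SE 0.0968, adjusted p = 0.00317). Cox7a2l, set apart above as a supercomplex factor, was at 107, 103 and 107 against 166, 158 and 139 FPKM (-0.54, SE 0.0833, adjusted p = 0.00307). These 3 kept their calls under all 13 alternatives. Cox8a was at 331, 326 and 342 against 432, 468 and 411 FPKM (-0.39, adjusted p = 0.00652) and Cox4i1 at 529, 502 and 550 against 694, 673 and 594 FPKM (-0.31, adjusted p = 0.0248), both with the groups apart.

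Cox5a, another nuclear subunit of complex IV, varied most among the liver libraries. It was at 52.1, 79.7 and 59.0 FPKM in cKO and 23.9, 174 and 215 in YFP+ libraries, so that YFP+ replicate 1 lay under all cKO libraries and the other two above them (adjusted p = 0.550, SE 0.702). Without YFP+ replicate 1 the difference was -1.61 (adjusted p = 8.09e-04). Cox5a and Uqcrfs1 were the 2 members whose coefficient of variation went over 50% in any group, both in liver YFP+, where the median over the members was 11.2%. Ndufab1 was also lowest in YFP+ replicate 1 of the liver (30.7 against 75.1 and 62.8 FPKM). That library held the lowest value of its group for 13 of the 82 members and the highest for 60. Genes of these complexes have many processed pseudogenes, and reads could be split between a gene and its copies. Whether this or a trait of that library bears on the values was not tested, and the level of a single member is uncertain.

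Complex V in the liver was lower in nearly all of its parts. Atp5g3, a ring subunit gene, was at 166, 160 and 177 FPKM in cKO and 291, 282 and 242 in YFP+ libraries (-0.69, SE 0.0894, adjusted p = 0.00146). Atp5l, a membrane subunit that helps the synthase pair up, was at 355, 327 and 362 against 604, 510 and 471 FPKM (-0.59, SE 0.0998, adjusted p = 0.00434). The peripheral stalk, which holds the head still, had 4 of 4 members lower, among them Atp5j at 211, 209 and 205 against 314, 290 and 259 FPKM (-0.46, adjusted p = 0.00583) and Atp5f1 at 147, 155 and 152 against 218, 206 and 186 FPKM (-0.42, adjusted p = 0.00644). All had the groups apart.

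The head of complex V was less uniform. Its catalytic pair, Atp5a1 at 117, 122 and 128 against 148, 138 and 140 FPKM (-0.21, adjusted p = 0.0583) and Atp5b at 137, 122 and 129 against 142, 156 and 168 FPKM (-0.26, adjusted p = 0.0553), lay below in each library and missed the threshold. Atp5d, in the central stalk, was at 95.8, 85.8 and 88.8 against 122, 198 and 196 FPKM (-0.89, SE 0.174, adjusted p = 0.00769). YFP+ replicate 1 lay closest to the cKO values there too. Atp5e, the most abundant member of the complex, was at 485, 459 and 485 against 758, 608 and 566 FPKM (-0.42, adjusted p = 0.0220).

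The 3 genes for subunit c encode the same mature peptide. Atp5g2 held 65.8% ± 1.88 of their summed FPKM in thymus cKO and 68.7% ± 1.61 in thymus YFP+ cells, and Atp5g3 28.5% ± 1.81 and 26.0% ± 1.01. In the liver Atp5g2 held 56.4% ± 1.40 in cKO and 51.9% ± 0.407 in YFP+, and Atp5g3 27.8% ± 0.984 and 32.7% ± 0.498. Atp5g1 held 5.38% to 5.78% on average in the thymus groups and 15.4% to 15.8% in the liver groups. Other isoform pairs were all but single: Cox4i2, Cox6a2, Cox6b2, Cox7a1, Cox8b and Cox8c were at or near 0 in both tissues, and Cox4i1, Cox6a1, Cox6b1, Cox7a2 and Cox8a carried nearly all of the FPKM of each pair. Of these rare isoforms, Cox6b2 was at 0 in each liver cKO library and at 1.75, 1.68 and 0.972 FPKM in YFP+, and Cox6a2 at 0.237, 0.214 and 0 against 1.05, 0.641 and 0.572 FPKM. Neither was tested.

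The liver members that did not pass were 15 of complex I, Sdha, Uqcrc1, Cox5a, Cox4nb, Atp5a1, Atp5b and Atp5sl. Of the 60 that passed, 30 kept their call in all 6 fits without 1 library, 15 in complex I, 1 in complex II (Sdhc), 3 in complex III, 4 in complex IV and 7 in complex V. The count of lower members fell to 33 on leaving out the first or second cKO library or the second YFP+ library. Over all genes the lower ones then numbered 1183 of 9612, 1199 of 9601 and 1093 of 9559, against 1889 of 9591 with all libraries. The members' count fell to 42 on leaving out the third cKO library (1335 of 9614 genes). Leaving out the first YFP+ library gave 57 (2023 of 9619 genes) and leaving out the third gave 70 (1853 of 9561 genes). In the YFP+ group replicate 1 held the highest value for 60 of the 82 members and replicate 3 the lowest for 64.

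Fewer liver members passed under the other scalings, and most kept a difference below 0. With median-ratio scaling 24 members were lower and 1 higher, against 10.9% of all genes lower. With libraries rescaled to equal FPKM sums, which moved the median of all genes to 0.09, 20 were lower and 1 higher (7.58%). With the trend on transcript length removed 17 of 80 were lower and 1 higher (9.96%). For complexes I to V the lower members numbered 12, 1, 3, 3 and 5 with median ratios. They numbered 7, 1, 4, 3 and 5 with equal FPKM sums and 7, 1, 2, 3 and 4 with the length trend removed. At an unadjusted p under 0.05 in either direction there were 46 of 82, 44 of 82 and 35 of 80 members, against 36.8%, 36.2% and 34.8% of all genes. Members below 0 numbered 79, 75 and 75 in turn. The members' median was -0.30, -0.19 and -0.20 in these fits. Relative to the median gene it was -0.31 as deposited and -0.29, -0.28 and -0.19 in turn.

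**Figure D4:**
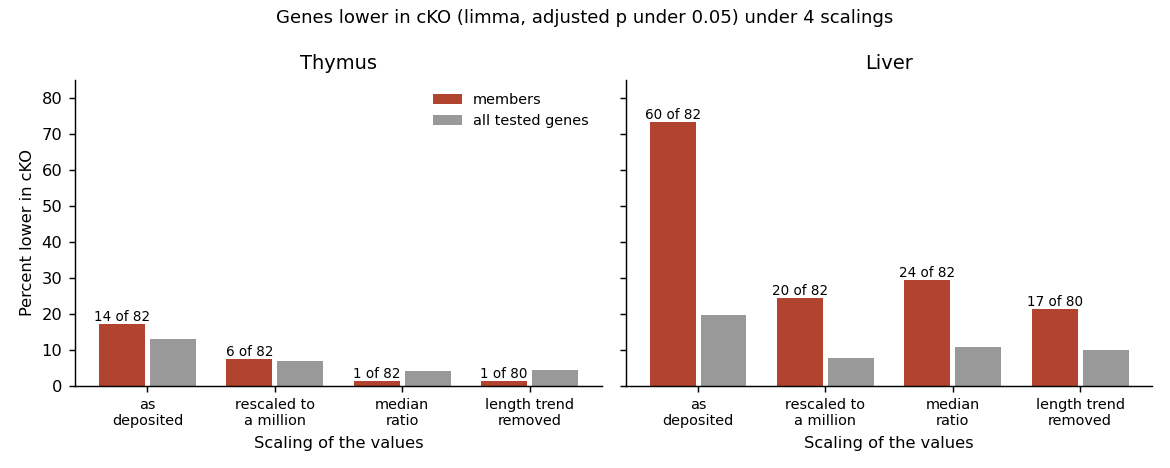
Share of the tested members and of all tested genes that were lower in cKO cells (y axis, percent, adjusted p of 0.05) with values as deposited and under 3 other scalings, in thymus and liver. In the liver the members' bar stays above that of all genes, from 60 of 82 to 17 of 80, and in the thymus it falls from 14 of 82 to 1 of 80.

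Transcript length was looked at because the members are short, with a median of 694 bases against 1857 for the genes tested in the liver. Over all liver genes with a length, shorter transcripts lay lower in cKO cells (median -0.27 for those up to 1000 bases and -0.07 for longer ones, Spearman's rho 0.33 across 8612 genes, which are not independent). Within the 80 members with a length the difference did not follow the lengths used (rho 0.05). The medians were -0.42 for the 60 short and -0.42 for the 20 long members, of which 46 and 14 were lower. Each length is a median over annotated transcripts and can be far from that of the main one. Ndufs1, the largest iron-sulfur subunit, counted as short at 651 bases, and the ring subunit gene Atp5g1 as long at 2675.5. The split of the members by length is thus uncertain, as is the removal of the trend. The boundary of 1000 bases was set after seeing the data. The cytosolic ribosomal protein genes, also short and abundant, gave 32 of 79 lower and a median of -0.26 in the liver, and 18 of 78 and -0.20 in the thymus. With the length trend removed their liver median was -0.02 with 1 of 77 lower and 1 higher, where the members stood at -0.20.

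Of the 14 members lower in the thymus, 12 were also lower in the liver, which is 85.7% of the thymus list and 20.0% of the liver list. Of all tested members 73.2% were lower in the liver. If the descriptions of the liver libraries held, those 12 would be lower in one tissue and higher in the other. These were Ndufa5, Ndufa6, Ndufb5, Ndufb8, Ndufc1 and Ndufs8 in complex I, Sdhb, Uqcrc2 and Uqcrh, Cox4i1 and Cox6c, and Atp5g2. The sizes of the difference in the tissues were only weakly related over the 82 members (Spearman's rho 0.08, Pearson's r 0.15, from separate libraries). With values as deposited 69 of the 82 were more negative in the liver. That count was 75 with median ratios, 46 with equal FPKM sums and 60 of 80 with the length trend removed. The share over all genes was not counted. Relative to the median gene the members' median was -0.23 as deposited and -0.24, -0.22 and -0.11 in turn.

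Whether a member's difference was unlike in the tissues was tested as an interaction over all 12 libraries, as liver difference minus thymus difference. Each tissue was normalized apart and seems to have its own kind of reads, paired or single. The interaction cannot tell these apart from the tissue. It passed for 8 of 82 members, 7 more negative in the liver and 1 more positive, against 5.91% and 9.14% of 9739 genes. At an unadjusted p under 0.05 there were 16 and 1, against 11.7% and 18% of all genes. The members' median was -0.17, beside 0.06 for all genes. The 5 with the smallest p were Sdhc (-0.55, SE 0.122, adjusted p = 0.0114), Atp5g3 (-0.56, SE 0.128, adjusted p = 0.0132), Uqcrc1 (0.46, SE 0.116, adjusted p = 0.0215), Ndufb4 (-0.58, SE 0.151, adjusted p = 0.0234) and Ndufs5 (-0.57, SE 0.151, adjusted p = 0.0250). Ndufb4, a membrane arm subunit, was at 16.3, 16.5 and 16.0 against 18.3, 13.9 and 15.7 FPKM in the thymus and at 103, 110 and 115 against 183, 154 and 145 FPKM in the liver. Sdhc and Atp5g3 kept this call in all 12 fits without 1 library, and Uqcrc1 in 11, the exception being without liver cKO replicate 2 (adjusted p = 0.0546). Sdha was at 0.24 in this test and did not pass (adjusted p = 0.202).

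Other genes of the pathway were read from a list. The 4 genes Cycs, Cyc1, Usmg5 and 2010107E04Rik lie outside the symbols of the rule but belong to the pathway. Cycs encodes cytochrome c, Cyc1 the cytochrome c1 of complex III, and the other two small proteins of the ATP synthase. In the liver 3 of 4 were lower: Cycs, at 81.3 ± 4.39 against 112.5 ± 9.53 FPKM (adjusted p = 0.00663), Usmg5, at 185.8 ± 18.5 against 288.5 ± 45.2 (adjusted p = 0.00798), and 2010107E04Rik, at 150 ± 4.48 against 235 ± 32.9 (adjusted p = 0.00391). Cyc1 was at 16.2 ± 4.997 against 33.6 ± 17.8 FPKM (adjusted p = 0.164). In the thymus 2010107E04Rik alone passed, at 24.8 ± 1.53 against 33.1 ± 3.67 FPKM (adjusted p = 0.0297).

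At an adjusted p of 0.05 assembly factors were called about as often as all genes, of which 19.7% were lower in the liver and 13.1% in the thymus. Of those tested, 4 of 23 were lower in the liver (Cox16, Lyrm7, Atpaf2 and Atpif1, the inhibitor of the synthase) and 4 of 21 in the thymus (Cox15, Sdhaf1, Tmem126b and Foxred1), with none higher in either and medians of -0.23 and -0.15. At an unadjusted p under 0.05, 10 of 23 were lower and 2 higher in the liver, against 28.6% and 11.8% of all genes. In the thymus 5 of 21 were lower and 0 higher at that threshold, against 32.7% and 4.92%. Cox15, which makes heme a for complex IV, was at 5.47 ± 0.0793 against 7.49 ± 0.299 FPKM in the thymus and 3.69 ± 0.498 against 2.74 ± 0.197 in the liver, and its difference between tissues passed (0.71, adjusted p = 0.00491). So did that of Sdhaf1, which helps put iron-sulfur clusters into Sdhb (1.06, adjusted p = 0.0153), and that of Lyrm7, which does so for Uqcrfs1 (-0.72, adjusted p = 0.0207). Lyrm7 averaged 0.788 FPKM in thymus cKO and 0.520 in thymus YFP+ cells, too low to be tested there. It entered the fit over both tissues only through its liver values. Genes for mitochondrial DNA upkeep and transcription, and for factors that drive the members, gave 3 of 14 lower in the liver and 2 of 14 in the thymus, with medians of -0.12 and -0.11, also near the shares of all genes. In the liver these were Tfam, which packs mitochondrial DNA, at 13.7 ± 0.807 against 18.4 ± 1.19 FPKM (adjusted p = 0.0193), Tfb2m and Polg2, and in the thymus Polg and Gabpb1. The factors whose motifs were searched for did not pass in the liver: Nrf1 was at 1.88 ± 0.303 against 2.23 ± 0.307 FPKM (adjusted p = 0.420), Gabpa at 1.801 ± 0.5003 against 1.95 ± 0.506 (adjusted p = 0.806) and Yy1 at 3.12 ± 0.891 against 2.35 ± 0.163 (adjusted p = 0.284).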

How the data were processed

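RNA-seq of sorted NKT cells was read from 2 tables of FPKM, 1 per tissue, which the authors deposited. Per the submitters' processing notes, reads were processed with Cufflinks 2.1.1 and TopHat2, listed there as version 2.8.0, on the mouse build mm9. Per the labels' protocols, 10 ng of RNA went into SMARTer cDNA synthesis, and libraries were made with either of 2 kits. The sources used here give neither the kit of each library nor a strand setting. The file names point to paired reads for the thymus and single reads for the liver. FPKM divide by transcript length and mapped total, so abundant transcripts in a library lower its other values.

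The 90 members and all lists were chosen with earlier results of these data known. Values were tested as log2(FPKM + 1) with limma-trend (limma 3.58.1, R 4.3.3), for genes whose FPKM averaged 1 or more, adjusted by Benjamini-Hochberg over all tested genes at 0.05. The pseudocount of 1 makes fold changes of low genes too small. Each tissue was fitted alone on its 6 libraries, and the difference between tissues on all 12. With 3 against 3 libraries an exact permutation test of 1 gene cannot go below 0.10, so none was used. Alternatives were a pseudocount of 0.1, no filter, a mean of at least 5 FPKM, median-ratio scaling, libraries rescaled to equal FPKM sums, removal of the trend on transcript length, a replicate block, and leaving out each library. Lengths were medians over the protein coding transcripts of a symbol in the GENCODE M21 annotation, or over all its transcripts where none was protein coding. They were found for 88 members.

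The text names, per tissue and complex, up to 4 members that passed with groups apart, by adjusted p, the member with the highest mean level, 10 members in every case (Ndufs1, Ndufv1, Sdha, Sdhb, Uqcrc1, Uqcrfs1, Cox4i1, Cox5a, Atp5a1, Atp5b), isoform pairs, and the 5 smallest p for the difference between tissues. Pearson's r of log2 values across genes was 0.988 to 0.996 (thymus) and 0.989 to 0.994 (liver) within groups, 0.983 to 0.988 and 0.981 to 0.983 between them, and no 2 libraries were identical. Absolute depth is unknown. Low values put the relative denominators of the libraries at 0.901 to 1.07. The fits were tested on simulated data. Python 3.11.15, pandas 2.3.3 and scipy 1.17.1 were used for the rest.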

Additional observations from a re-analysis of the deposited data

Results flagged for a closer look

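The members below differed between the tissues by the interaction test (limma, all 12 libraries, adjusted over 9739 genes), each given as the liver difference minus the thymus difference on the log2(FPKM + 1) scale. Those more negative in the liver were Sdhc (-0.55), Atp5g3 (-0.56), Ndufb4 (-0.58), Ndufs5 (-0.57), Atp5d (-0.81, adjusted p = 0.0268), Cox5b (-0.41, adjusted p = 0.0337) and Cox7a2 (-0.45, adjusted p = 0.0357). Uqcrc1 was more positive in the liver (0.46). For Atp5d the thymus values were 76.8, 71.3 and 72.1 FPKM in cKO and 71.6, 74.1 and 87.5 in YFP+ libraries, which overlap, and its call was kept in 6 of 12 fits without 1 library. Those of Cox5b and Cox7a2 were kept in 3 and 2 of the 12, that of Ndufs5 in 7 and that of Ndufb4 in 10. If the descriptions of the liver libraries and not their titles were correct, the sign of each liver difference would turn and these tests would have to be run again.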

How the results depend on the processing

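With a pseudocount of 0.1 the counts of members were as reported, 14, 60 and 8 (thymus, liver and difference between tissues). In the thymus the count of 14 became 5 with no filter, 23 with a mean of at least 5 FPKM, 2 with median-ratio scaling or the length trend removed and 7 with libraries rescaled to equal FPKM sums, and it ranged from 1 to 37 without 1 library. In the liver the count of 60 became 40 with no filter, 62 with a mean of at least 5 FPKM, 25 with median-ratio scaling, 21 with equal FPKM sums and 18 with the length trend removed, and it ranged from 33 to 70 without 1 library. The difference between tissues gave 4 members with equal FPKM sums, 11 with median ratios and 3 to 14 without 1 library. Members below 0 fell from 80 of 82 to 59 (median ratios) and 61 of 80 (length trend removed) in the thymus, and from 81 of 82 to 75 with equal FPKM sums in the liver. Among the members named by rule these turned sign and did not pass: Atp5a1 in the thymus with median ratios (0.00102) and in the liver with equal FPKM sums (0.0163), Atp5b in the thymus with median ratios (0.0474) and the length trend removed (0.0172), Ndufa3 in the liver with the length trend removed (0.0160), and Sdha in the liver with median ratios (0.0955), equal FPKM sums (0.209) and the length trend removed (0.11). Ndufaf4 in the liver, named outside the rule, turned to 0.0674, 0.179 and 0.0550 under these 3 scalings. The cause of these changes was not tested.

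Replicate numbers are shared by the groups, but same-numbered libraries did not deviate together (correlations of their deviations between -0.05 and 0.01 in the thymus and between -0.06 and 0.07 in the liver). With a replicate block the counts were 6, 51 and 2. Over all genes, 614 of 9097 were then lower in the thymus and 1614 of 9591 in the liver. The interaction was more negative in the liver for 447 of 9739 genes and more positive for 611. Read depth is unknown, and 3 libraries a group limit what small differences can be shown.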
